A study of Mus musculus with 8 samples.

Results

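Ifitm1, Ifitm2, Ifitm3 and Ifitm6 belong to the interferon-induced transmembrane (IFITM) family, and they were followed through single cells of mouse bone marrow with and without the kinase JAK2V617F. The 4 genes were taken by symbol from the 31054 features of each count matrix. Ifitm1 was picked because it was higher with JAK2V617F in both genotypes in an earlier look at these data, so its difference in that contrast is given as a description and is not used as support for anything else. All 4 members passed 10 UMIs per 1000000 in at least one cell group of every library. Ifitm6 was under that level in the progenitor groups.

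IFITM proteins are short proteins of the plasma membrane and of endosomes that hinder the fusion of enveloped viruses with the cell. They are best known as targets of interferons, whose receptors signal through Janus kinases and STAT factors. JAK2 serves the receptors for erythropoietin, thrombopoietin and interferon gamma among others, and JAK2V617F is the constitutively active form found in myeloproliferative neoplasms, blood cancers that can lead to scarring of the marrow. In blood formation several IFITM genes are already expressed in stem and progenitor cells without infection. Ifitm1 acts mainly at the cell surface, Ifitm3 in late endosomes and lysosomes, Ifitm2 is a close relative of Ifitm3, and Ifitm6 is a less studied member of the mouse cluster.

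Donor marrow came from 8-week-old wild type (WT) or Gli1 knockout (Gli1KO) mice, which lack a transcription factor of hedgehog signalling. It had been harvested 48 hours before transplantation and infected with a retrovirus carrying JAK2V617F or unmutated JAK2 (JAK2WT). Recipients were female B6.SJL mice, 8 to 10 weeks old and irradiated with 10.5 Gy. The series asks what Gli1 of the blood-forming cells does in myelofibrosis driven by JAK2V617F. On day 112, marrow of 3 mice per group was depleted of cells with CD11b, GR1, TER119, B220 or CD3, pooled within the group and sorted into live, lineage-negative cells with and without GFP, and each group has 1 mRNA library. All 4 groups shared transplantation, irradiation and retroviral transduction with a JAK2 construct. Since each group is 1 library (n = 1, a pool), none of the differences could be set against a spread between replicates and none was tested. The ranges in parentheses are 95% intervals for the error of counting UMIs alone. Values in lists of 4 follow the order WT JAK2WT, WT JAK2V617F, Gli1KO JAK2WT, Gli1KO JAK2V617F.

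The libraries held 59165347 to 114847114 UMIs, and 7196, 3432, 3770 and 6035 cells were kept. Median depth differed between them, at 4424.5, 13250, 17367.5 and 13675 UMIs per kept cell. The libraries also differed in make-up: erythroid cells took 36.8% of WT JAK2V617F and at most 1.3% of the others, B lineage cells took 31.2% of WT JAK2WT and at most 0.895% of the others, and both types were present although the sort was meant to leave them out. Gli1 had 0, 2, 0 and 4 UMIs in kept cells, too few to check the knockout by its transcript, and Jak2 measured 40.9, 41.1, 21.5 and 31.3 UMIs per 1000000, from reads that cannot tell the mutant from the normal transcript. Xist had 78795 and 36779 UMIs in the WT libraries against 867 and 273 in the Gli1KO libraries, and Y-linked genes had 1 and 0 against 9079 and 11888. Sex of the donor cells and Gli1 genotype therefore cannot be told apart in any comparison of genotypes. Of 34086 distinct barcodes, 113 occurred in more than 1 library, and 144 kept cells carried such a barcode.

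The members lie together on chromosome 7 (GRCm38, the assembly also called mm10). Ifitm2 spans 140954837 to 140955987 on the minus strand, and Ifitm1 follows at 140967221 to 140969825 on the plus strand. Ifitm3 lies at 141009586 to 141010770 and Ifitm6 at 141015699 to 141017924, both on the minus strand. Ifitm2 shares 268 exonic bases with the predicted gene Gm45717 on the same strand, which had 0 UMIs in the neutrophil and the granulocyte-monocyte progenitor groups. Reads from the shared bases were not followed, so that count cannot show whether the Ifitm2 level is affected. Near-identical copies can take reads from a member: of all 31-base stretches in the last 400 transcript bases, 13.5% of Ifitm1, 38.4% of Ifitm2 and 26.2% of Ifitm3 also occurred in another gene (other IFITM genes and predicted genes), and 0 of Ifitm6 did. Levels of the first 3 members are uncertain for this reason, and the size of the error was not measured.

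All 4 members had an entry in the RefSeq promoter table (GRCm38.p6). The bases from 150 before to 30 after each start are printed because the strings of interferon signalling differ between the members at these starts. Capitals mark the letters GAAANNGAAA, the core of the interferon-stimulated response element, and TTCNNNGAA, the gamma-activated site bound by STAT dimers. Both strands were searched.
Ifitm1, chr7:140967926-140968105, plus strand: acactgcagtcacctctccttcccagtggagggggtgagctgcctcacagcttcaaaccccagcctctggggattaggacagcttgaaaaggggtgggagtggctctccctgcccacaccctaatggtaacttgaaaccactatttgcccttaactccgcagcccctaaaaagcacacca
Ifitm2, chr7:140955932-140956111, minus strand: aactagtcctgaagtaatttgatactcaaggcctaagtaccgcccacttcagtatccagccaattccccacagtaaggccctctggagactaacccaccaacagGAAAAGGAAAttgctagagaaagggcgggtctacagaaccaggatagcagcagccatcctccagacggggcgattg
Ifitm3, chr7:141010715-141010894, minus strand: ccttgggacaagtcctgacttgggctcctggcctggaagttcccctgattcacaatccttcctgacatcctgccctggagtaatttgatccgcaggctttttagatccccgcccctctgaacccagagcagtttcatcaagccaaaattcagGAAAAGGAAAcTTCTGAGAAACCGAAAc
Ifitm6, chr7:141016863-141017042, minus strand: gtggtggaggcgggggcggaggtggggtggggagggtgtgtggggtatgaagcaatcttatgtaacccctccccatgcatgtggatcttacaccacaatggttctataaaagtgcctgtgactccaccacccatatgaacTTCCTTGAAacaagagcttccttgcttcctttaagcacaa
Ifitm2 held the response element at -46 to -37 from its start. Ifitm3 held it at 3 to 12 and at 20 to 29, with a gamma-activated site at 14 to 22 that overlaps the second of them. Ifitm6 held a gamma-activated site at -10 to -2. Neither string occurred in the 300 bases of the table's window for Ifitm1. That window lies around a start at 140968076, whereas the annotated gene has 3 transcripts and begins at 140967221. The bases around that beginning were not searched. Among 32851 promoters of that length, 3.44% held the response element string and 8.3% the gamma-activated site string. A match is a description of letters and shows no binding, and the absence of a match says only that these letters are not in the window.

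Over all kept cells Ifitm1 measured 71.98 UMIs per 1000000 UMIs (CPM) in WT JAK2WT, 797 in WT JAK2V617F, 213 in Gli1KO JAK2WT and 1014 in Gli1KO JAK2V617F. Ifitm2 measured 433, 695, 548 and 852 CPM, and Ifitm3 measured 285, 473, 272 and 639.8 CPM. Ifitm6 measured 33.0, 193, 9.81 and 225 CPM. For each member the JAK2V617F library of a genotype was above its JAK2WT library, but such sums mix the members' levels with the make-up of the libraries. The related genes Ifitm5, Ifitm7 and Ifitm10 reached at most 0.428, 4.68 and 1.77 CPM in any library and are not described further.

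Levels were therefore taken within cell groups, which are clusters named from marker genes where those markers lead the cluster. The stem and multipotent progenitor group (HSC/MPP) held 195, 305, 381 and 1763 cells, with 9 to 11 of its 12 markers at 50 CPM or more in each library. The group of granulocyte-monocyte progenitors and promyelocytes (GMP/promyelocyte) held 616, 528, 667 and 682 cells, with all 7 markers. Monocyte cells numbered 312, 54, 238 and 268, mast/basophil cells 114, 200, 85 and 373, and neutrophil cells 129, 203, 29 and 262. Clusters 11 and 5 stayed unnamed and are called by number: cluster 11 was led by Cpa3, Ccl9, Myc and Cd34, and cluster 5 by Pf4, histone and mitosis genes. IFITM genes took no part in the clustering.

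In JAK2WT marrow Ifitm1 was high in mast/basophil and HSC/MPP cells and low in neutrophils, monocytes and their progenitors, and in JAK2V617F marrow it was high in all of these groups. In HSC/MPP it measured 581, 1204, 755 and 1160 CPM. In GMP/promyelocyte it measured 32.3 (29.3 to 35.6), 925 (909 to 940.4), 87.6 (83.9 to 91.5) and 557 (547 to 567) CPM. The JAK2WT libraries were thus low in the granulocytic progenitors and moderate in the stem cell group, whereas the JAK2V617F libraries were high in both. In neutrophils Ifitm1 measured 20.1 (13.1 to 29.4), 1893 (1842 to 1944), 57.9 (29.9 to 101) and 3614 (3559 to 3670.1) CPM. In monocytes it measured 51.9, 1428, 134 and 954 CPM. Neutrophils and monocytes showed the same split, with both JAK2V617F libraries far above both JAK2WT libraries. The monocyte group is not read as mature. Its 11 monocyte markers summed to 3742, 1936, 2808 and 2358 CPM. The 7 markers of granulocyte-monocyte progenitors summed to 18880, 15830, 19170 and 15250 CPM in it.

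The order of cell groups by Ifitm1 depended on the construct. In WT JAK2WT, Ifitm1 was 17.99-fold higher (16.04 to 20.2) in HSC/MPP than in GMP/promyelocyte and 28.99-fold higher (19.7 to 44.6) than in neutrophils. In Gli1KO JAK2WT the same ratios were 8.61 (8.17 to 9.08) and 13.1 (7.46 to 25.3). With JAK2V617F the relation to neutrophils was inverted: neutrophils were 1.57-fold (1.51 to 1.64) above HSC/MPP in WT and 3.12-fold (3.06 to 3.18) above in Gli1KO. Monocytes stood 11.2-fold and 5.64-fold under HSC/MPP in the JAK2WT libraries, 1.19-fold above it in WT JAK2V617F and 1.22-fold under it in Gli1KO JAK2V617F. In the plot of Ifitm1 over myeloid groups the JAK2WT lines fall from HSC/MPP to GMP/promyelocyte and end lower in neutrophils and slightly higher in monocytes. The Gli1KO JAK2V617F line also falls to GMP/promyelocyte, 2.08-fold, and the WT JAK2V617F line by 1.30-fold, before both end higher in neutrophils and monocytes.

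**Figure D1:**
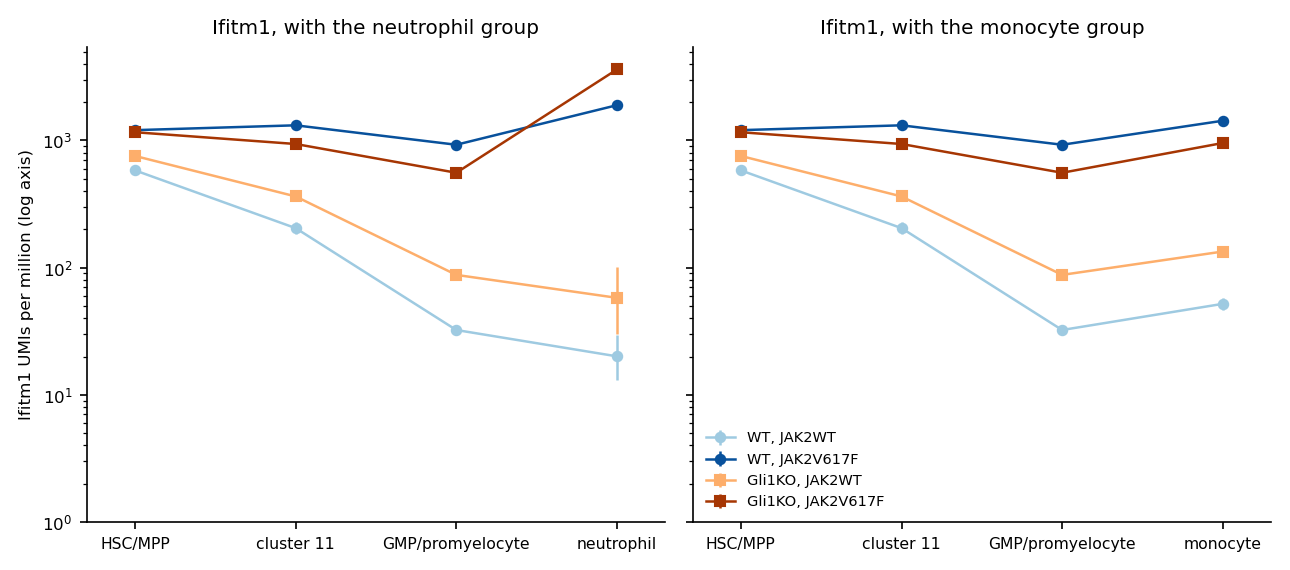
Ifitm1 in CPM (log axis) for HSC/MPP, cluster 11, GMP/promyelocyte and either neutrophil (left) or monocyte (right) cells; each line joins the values of 1 library, lines do not stand for a measured lineage, and bars are 95% counting intervals. In WT JAK2WT the value goes from 581 in HSC/MPP to 20.1 in neutrophils, and in Gli1KO JAK2V617F from 1160 to 3614.

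Averaged over the 4 libraries with equal weight, Ifitm1 was highest in mast/basophil cells, at 2060 ± 814 CPM (SD over 4 libraries, which include the differences between groups), followed by neutrophils at 1396 ± 1718, HSC/MPP at 925 ± 306, cluster 11 at 705 ± 514 and monocytes at 642 ± 664. None of these neighbours differed by more than the larger of their SDs, and over pooled counts neutrophils came before mast/basophil cells. At the low end of 22 groups stood plasma cells at 87.8 ± 117, erythroid cells at 37.4 ± 37.1 and T cells at 13.3 CPM in the 1 library with enough of them. Mast/basophil cells were the one myeloid group with a high level in JAK2WT marrow too: 839.7, 2509.9, 2422 and 2468 CPM. The WT JAK2WT library was low there, and the other 3 lay close together.

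**Figure D2:**
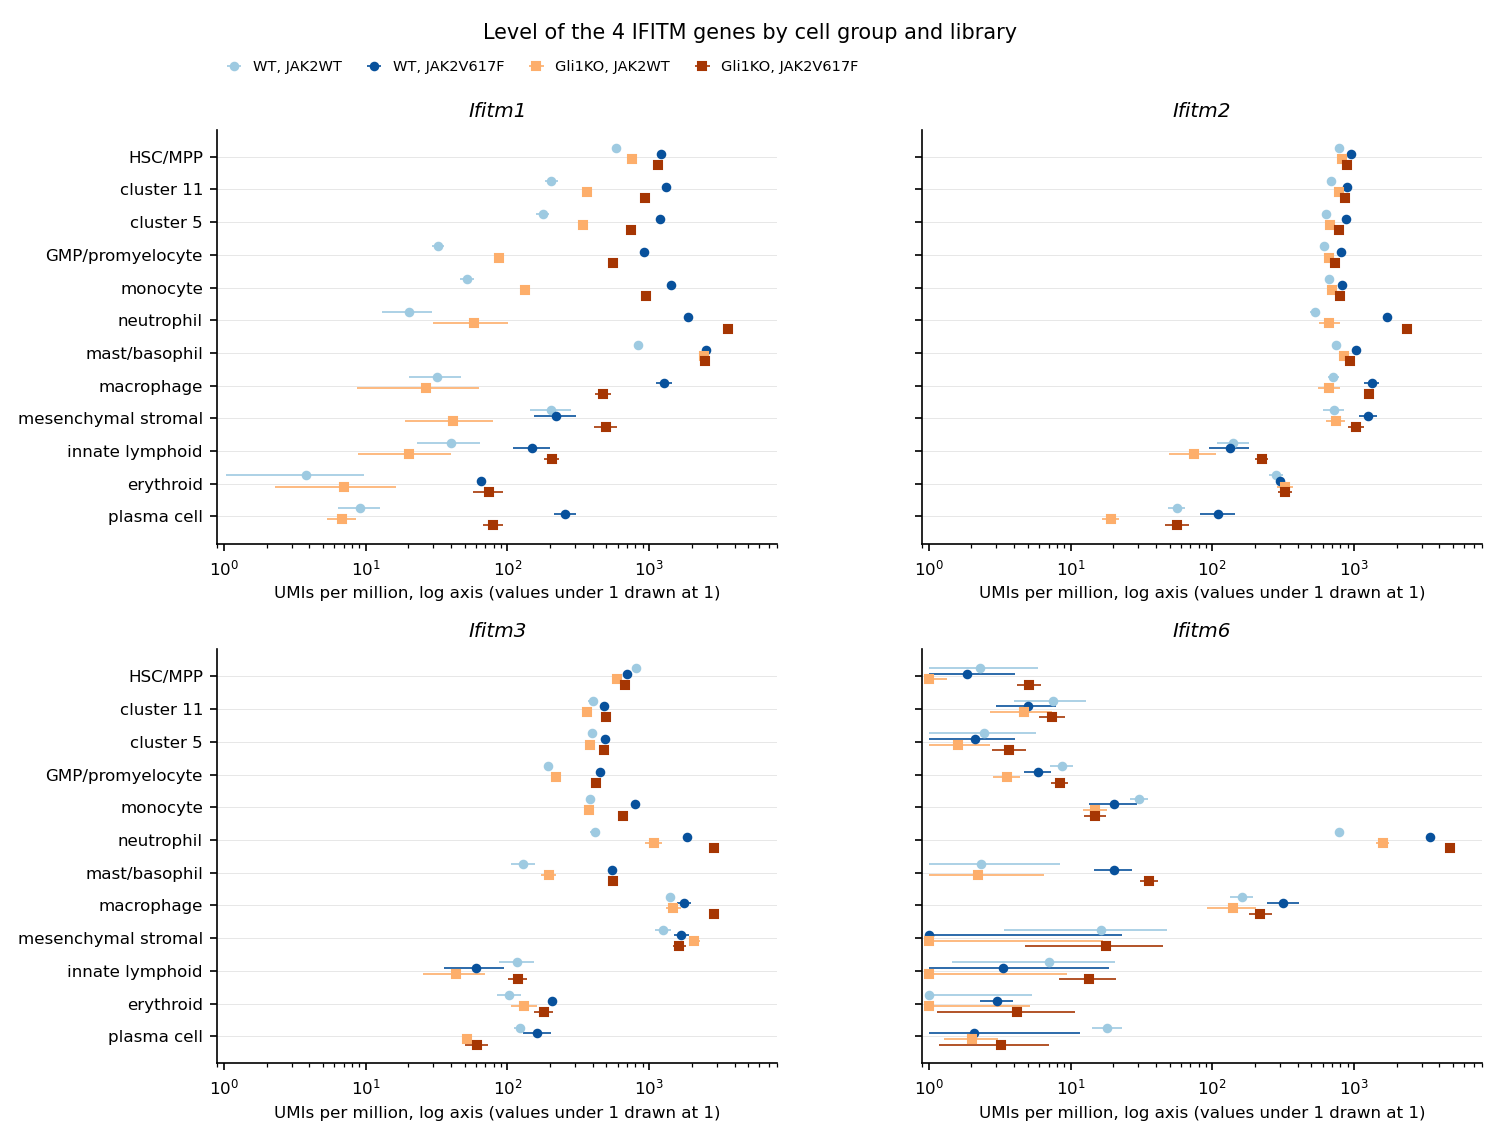
Level of each member in CPM (log axis, values under 1 drawn at 1) for 12 cell groups; points are the 4 libraries and bars are 95% counting intervals. Ifitm1 spreads widely between libraries, Ifitm2 little in the progenitor groups, and Ifitm6 is high in neutrophils, at 788 to 4731 CPM.

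Within cell groups Ifitm1 was higher with JAK2V617F in WT marrow in 14 of 14 groups measured, and at least 1.5-fold higher in 13 of them. In Gli1KO marrow it was higher in 19 of 20, at least 1.5-fold in 18, with B lineage cells (21 and 54 cells) the exception at a log2 ratio of -1.25. Across the same groups, 4.61% to 32.8% of all genes were at least 1.5-fold higher in WT and 0.363% to 29.7% in Gli1KO marrow. Both counts of groups include plasma and erythroid cells, which are taken as background below and were past 1.5-fold in both genotypes. The counts are therefore not read as expression in every cell type. Folds were taken on CPM and log2 ratios on CPM + 10. In GMP/promyelocyte the fold was 28.6 (25.97 to 31.6) in WT and 6.35 (6.07 to 6.66) in Gli1KO marrow, where 6.88% and 0.534% of all genes were at least 1.5-fold higher. In monocytes it was 27.5 (24.4 to 31.1) and 7.13 (6.66 to 7.65), against a background of 9.51% and 1.56% of genes. Both groups showed the larger fold in WT marrow.

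In neutrophils the folds were 94.4 (64.3 to 144.6) in WT and 62.5 (35.8 to 120.9) in Gli1KO marrow, with 26 and 12 Ifitm1 UMIs behind the JAK2WT values and 7.45% and 7.84% of genes higher by 1.5-fold. The median gene of the neutrophil group stood at a log2 ratio of -0.22 and -0.36, and Ifitm1 at 5.98 and 5.74. The neutrophil groups were not alike in make-up. Their summed neutrophil markers were 303400, 349200, 314300 and 387400 CPM with all 12 detected, while the summed markers of granulocyte-monocyte progenitors were 16570, 4412, 5240 and 2566 CPM with all 7 detected. Ltf, a secondary granule gene, measured 3848, 7584, 5684 and 10240 CPM, and Elane, a primary granule protease, 6977, 1446, 1466 and 694 CPM. The part of make-up in the neutrophil differences of Ifitm1 or any other member, between constructs or genotypes, was not tested. In GMP/promyelocyte cells the markers of the later neutrophil summed to 5946, 873, 499 and 694 CPM, lower with JAK2V617F in WT and higher in Gli1KO marrow, and the 7 defining markers of the group summed to 33860, 28670, 31580 and 27940 CPM.

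In HSC/MPP the Ifitm1 fold was 2.07 (1.93 to 2.22) in WT and 1.54 (1.49 to 1.59) in Gli1KO marrow, with backgrounds of 5.74% and 0.363% of genes. Cluster 11 gave 6.43 and 2.58 (backgrounds of 4.95% and 0.417%) and cluster 5 gave 6.77 and 2.17 (4.61% and 1.07%). In mast/basophil cells the fold was 2.99 (2.76 to 3.24) in WT and 1.02 (0.98 to 1.06) in Gli1KO marrow, against 8.17% and 2.39% of genes. The mast/basophil group holds 2 clusters with unequal shares. Cluster 26, led by Ccl6, Il4 and Ccl3, had 20, 51, 0 and 52 cells, and in it Ifitm1 measured 108 (22.2 to 314), 3395 and 4469 CPM in the 3 libraries that had any. Cluster 16, led by Prss34, Prg2 and Ms4a2, measured 864, 2253, 2422 and 2072 CPM, so there Gli1KO JAK2WT was the highest library. By score, cluster 16 was highest for the eosinophil markers, of which Prg2 and Prg3 were among its leading genes. At Leiden resolution 2.0 a separate eosinophil cluster held 12, 16, 4 and 35 cells. The mast/basophil group is therefore not read as free of eosinophil-like cells, and their part in its values was not tested.

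In macrophages Ifitm1 measured 31.8, 1272, 26.8 and 472 CPM from 89, 21, 24 and 35 cells, a JAK2V617F fold of 40.0 (26.3 to 63.7) in WT and 17.6 (7.43 to 54.6) in Gli1KO marrow, with 24 and 5 UMIs behind the JAK2WT values and 14.7% and 12.8% of genes at least 1.5-fold higher. The macrophage group was led by Fn1 and Lyz2 as well as by C1qa and C1qb. At both other Leiden resolutions the macrophage cluster held only 57, 3, 18 and 8 cells. At the higher of them Fn1 and Lyz2 led a monocyte cluster. The macrophage group is therefore not read as macrophages alone. The part of other cells in its values, for any member or comparison, was not tested. Mesenchymal stromal cells measured 204, 219.7, 41.6 and 495 CPM of Ifitm1 in 37, 43, 41 and 37 cells. Genotype and construct refer to the donor marrow, and whether the stromal cells came from donor or recipient was not tested. Cluster 2, led by Irf8, Cox6a2 and Runx2 (414, 3, 214 and 71 cells), had a JAK2V617F fold of 17.7 (15.7 to 20.1) in Gli1KO marrow for Ifitm1, 2.14 (2.01 to 2.29) for Ifitm2, 3.94 (3.64 to 4.25) for Ifitm3 and 5.06 (3.598 to 7.17) for Ifitm6, where 2.92% of genes were at least 1.5-fold higher. Cluster 14, led by H2-Eb1, H2-Aa and Siglech (642, 6, 98 and 46 cells), had folds of 13.2 (10.2 to 17.2), 2.66 (2.34 to 3.02), 3.96 (3.53 to 4.45) and 2.73 (1.80 to 4.16), against 6.46% of genes. Clusters 2 and 14 had too few cells in WT JAK2V617F for a value there.

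Plasma and erythroid cells, which should carry little Ifitm1, were taken as the background. In plasma cells it measured 9.11, 256, 6.84 and 79.4 CPM, and in erythroid cells 3.82, 65.1, 7.01 and 73.7 CPM. Both were also higher in the JAK2V617F libraries, by 28.1-fold (19.2 to 41.9) and 17.1-fold (6.65 to 62.8) in WT and by 11.6-fold and 10.5-fold in Gli1KO marrow, where 7.33%, 6.55%, 7.35% and 8.62% of all genes were at least 1.5-fold higher in the same order. In GMP/promyelocyte cells the level was above both backgrounds of the same library in all 4 libraries, by the values given. The part of free RNA in the differences was not tested.

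With every cell thinned to 1000 UMIs, the share of cells with an Ifitm1 UMI followed the same pattern. In GMP/promyelocyte it was 2.76% (1.62 to 4.38), 46.6% (42.3 to 50.95), 9.29% (7.2 to 11.8) and 29.8% (26.4 to 33.4). In plasma cells it was 2.11% (0.779 to 4.54), 9.09% (1.92 to 24.3), 0.539% and 6.78% (1.88 to 16.5), and in erythroid cells 0 of 63 cells (up to 5.69%), 4.59%, 2.04% and 7.84%. At this thinned depth the interval of the GMP/promyelocyte share of WT JAK2WT overlapped those of plasma and erythroid cells, so that share is not read as expression, although the level in CPM was above both. The shares of both JAK2V617F libraries were above both backgrounds beyond the intervals, and that of Gli1KO JAK2WT was so against plasma cells (0.0654 to 1.93), while its interval overlapped that of its 49 erythroid cells (0.0517 to 10.85). Without thinning the GMP/promyelocyte shares were 28.6%, 93.9%, 63.1% and 89.0% at median depths of 21060, 28060, 36420 and 33170 UMIs, beside 8.1%, 36.4%, 12.7% and 61.0% of plasma cells at 13350, 10320, 30670 and 31320 UMIs.

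HSC/MPP cells had a thinned share of 34.9%, 59.0%, 49.1% and 59.95%, monocytes 3.21%, 66.7%, 10.5% and 56.7%, and neutrophils 3.88%, 50.7%, 10.3% and 56.5%. Ifitm1 was spread unevenly among the cells of a group. The 5% of GMP/promyelocyte cells with most Ifitm1 UMIs held 50.8%, 24.4%, 31.7% and 29.1% of the group's Ifitm1 UMIs, and in neutrophils they held 53.8%, 34.0%, 75% and 31.5%. In both groups the JAK2WT library of each genotype had the higher such share and also fewer Ifitm1 UMIs. In neutrophils only 26 UMIs in WT JAK2WT and 12 in Gli1KO JAK2WT lay behind it. Counts were not thinned here, and such a share rises where UMIs are few. No difference in spread between libraries is therefore read from these values.

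**Figure D3:**
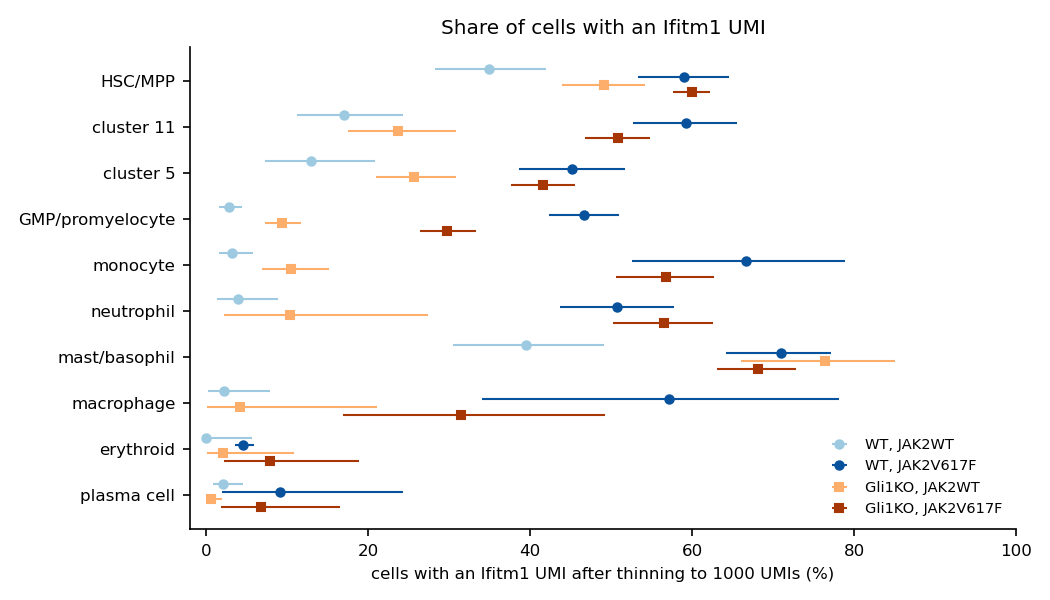
Share of cells with an Ifitm1 UMI after thinning each cell to 1000 UMIs, by cell group; points are the 4 libraries and bars are exact 95% binomial intervals. Erythroid and plasma cells at the bottom give the background, and the interval of GMP/promyelocyte cells of WT JAK2WT (2.76%) overlaps that of plasma cells (2.11%) of the same library.

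Ifitm3, the endosomal member, was highest in macrophages, stromal cells and neutrophils. Its mean level over the libraries was 1879 ± 671 CPM (SD, 4 libraries) in macrophages, 1666 ± 337 in mesenchymal stromal cells and 1550 ± 1048 in neutrophils, which do not differ beyond their spread. HSC/MPP came next among the named groups at 693 ± 87.7 CPM. In neutrophils the libraries measured 416, 1860, 1075 and 2849 CPM, which is 4.47-fold (4.09 to 4.90) higher with JAK2V617F in WT and 2.65-fold (2.32 to 3.04) higher in Gli1KO marrow. Both JAK2V617F libraries were above both JAK2WT libraries, as for Ifitm1, though here the JAK2WT values also lay far apart.

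In GMP/promyelocyte cells Ifitm3 measured 194, 451, 219.9 and 419 CPM, a fold of 2.33 (2.22 to 2.44) in WT and 1.90 (1.84 to 1.97) in Gli1KO marrow. In mast/basophil cells it measured 129, 546, 197 and 553 CPM, with folds of 4.23 (3.48 to 5.20) and 2.81 (2.48 to 3.20). The 2 clusters of that group differed in Ifitm3 as well: cluster 16 measured 124, 255, 197 and 233 CPM, and cluster 26 measured 287, 1551 and 2168 CPM where it had cells. In HSC/MPP Ifitm3 measured 806, 695, 592 and 678 CPM, so WT JAK2WT was the highest library and the JAK2V617F fold was 0.863 (0.807 to 0.923) in WT and 1.15 (1.10 to 1.19) in Gli1KO marrow. Ifitm3 was higher with JAK2V617F in 10 of 14 groups of WT marrow (5 of them by 1.5-fold, and 1 lower by that much) and in 17 of 20 groups of Gli1KO marrow (11 and 1). Across these groups 4.61% to 32.8% of all genes were higher by 1.5-fold in WT and 0.363% to 29.7% in Gli1KO marrow. The shares lower by that much were 3.67% to 26.2% and 0.247% to 35.2%. Thinned shares in neutrophils were 32.6%, 74.9%, 48.3% and 85.1%, above the 6.35%, 14.2%, 10.2% and 17.6% of erythroid cells.

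Ifitm2 differed little between libraries in the progenitor groups. It measured 781, 952, 821 and 897 CPM in HSC/MPP, 687, 894, 784 and 869.6 CPM in cluster 11, and 619, 809, 669.98 and 739 CPM in GMP/promyelocyte cells. Within each of these groups the 4 libraries lay within a factor of 1.5, and the JAK2V617F folds in GMP/promyelocyte were 1.31 (1.27 to 1.35) and 1.10 (1.08 to 1.13). Neutrophils stood apart again, with 527, 1721, 670.1 and 2347 CPM and folds of 3.27 (3.02 to 3.55) and 3.50 (2.96 to 4.17). Macrophages measured 716, 1334, 671 and 1269 CPM, with folds of 1.86 (1.60 to 2.17) and 1.89 (1.56 to 2.31) from 89, 21, 24 and 35 cells. The limit given above for the macrophage group holds for these folds too. Neutrophils had the highest mean, 1316 ± 869 CPM, and plasma cells the lowest, 60.5 ± 37.5 CPM. Erythroid cells measured 281, 301, 328 and 327 CPM, and their share of cells with an Ifitm2 UMI after thinning was 20.6%, 23.8%, 30.6% and 37.3%, against 6.34%, 9.09%, 4.04% and 3.39% of plasma cells.

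Ifitm6 was highest in neutrophils, at 2643 ± 1787 CPM (SD, 4 libraries), and next in macrophages, at 209 ± 79.6 CPM, a difference larger than either spread. Neutrophils measured 788 (740.1 to 837), 3463 (3394 to 3532), 1591 (1424 to 1772) and 4731 (4668 to 4795) CPM. The JAK2V617F fold was 4.40 (4.12 to 4.69) in WT and 2.97 (2.67 to 3.33) in Gli1KO marrow. The neutrophil groups differed in make-up, as given above, and the part of this in the folds was not tested. Macrophages measured 162, 318, 139.6 and 219 CPM. There the log2 ratios of 0.93 and 0.61 turned to -0.02 and -0.20 when doublets were kept, so no direction is given for macrophages. HSC/MPP cells measured 2.3, 1.87, 0.372 and 5.11 CPM and GMP/promyelocyte cells 8.67, 5.89, 3.56 and 8.4 CPM, all under the 10 CPM set as the limit for a measured gene.

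The share of neutrophils with an Ifitm6 UMI after thinning was 43.4%, 79.8%, 44.8% and 81.7%, against 0 of 63, 0.158%, 0 of 49 and 0 of 51 erythroid cells (upper bounds of 5.69%, 7.25% and 6.98% for the counts of 0). The 2 JAK2V617F libraries were close to each other, and so were the 2 JAK2WT libraries. In mast/basophil cells Ifitm6 measured 2.35, 20.2, 2.23 and 36.0 CPM. Cluster 26 alone measured 0, 73.0 and 170.2 CPM in its 3 libraries, while cluster 16 stayed at 2.42, 4.85, 2.23 and 9.48 CPM.

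**Figure D4:**
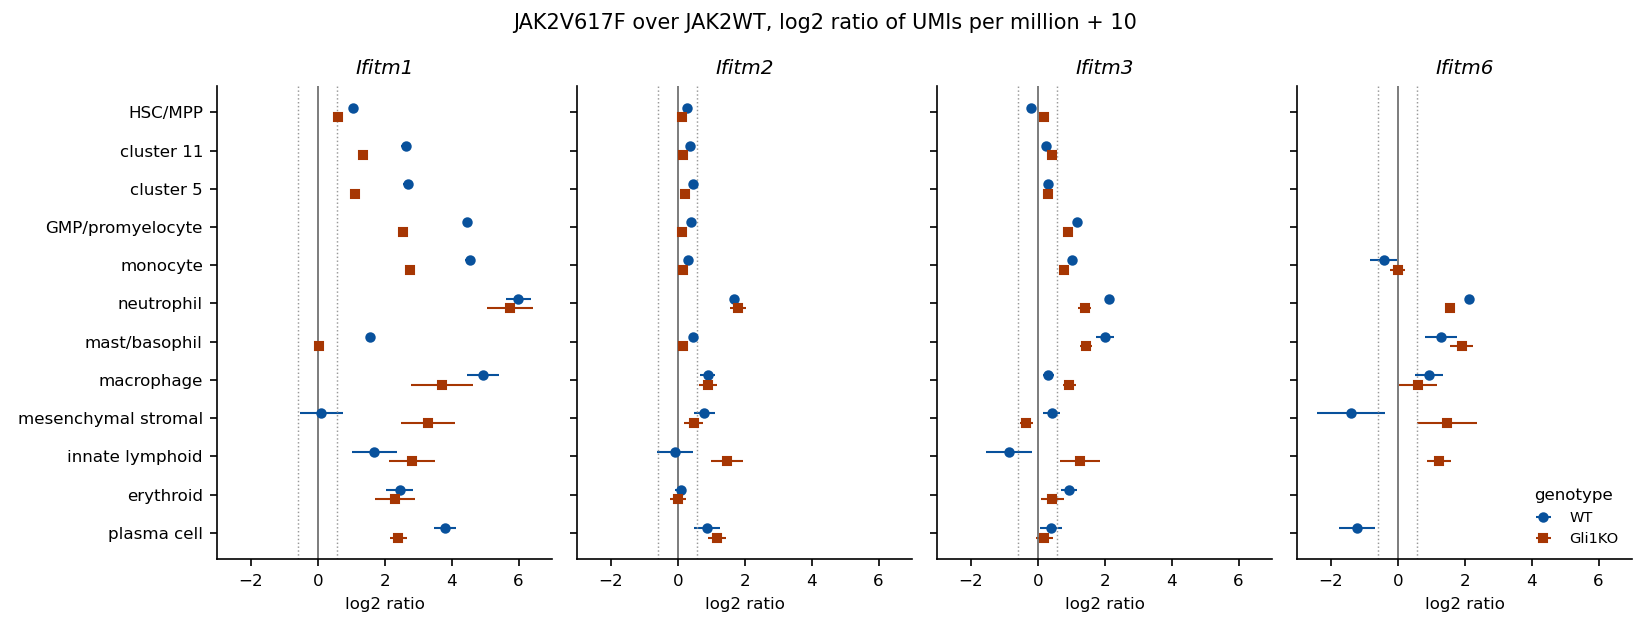
Log2 ratio of JAK2V617F over JAK2WT (log2 of CPM + 10) for each member by cell group, in WT (circles) and Gli1KO (squares) marrow; bars are 95% counting intervals, dotted lines mark 1.5-fold, and no point is drawn where both libraries are under 10 CPM or under 20 cells. Ifitm1 lies right of the dotted line in most groups, and in neutrophils all 4 members do.

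To compare the libraries at one make-up, levels were averaged over the 4 groups with at least 100 cells in every library (GMP/promyelocyte, HSC/MPP, cluster 5 and cluster 11) with fixed weights of 34.3%, 33.0%, 17.4% and 15.4%. Standardised in this way Ifitm1 measured 265, 1124, 394 and 847 CPM. The log2 ratio for JAK2V617F was 2.04 (1.98 to 2.11) in WT and 1.08 (1.05 to 1.12) in Gli1KO marrow, the second highest of 8079 and of 7904 genes. Of all genes, 3.52% in WT and 0.329% in Gli1KO marrow were at least 1.5-fold higher, 2.96% and 0.316% were lower by that much, and the median gene stood at 0.04 and 0.01. Since Ifitm1 was chosen by this contrast, its rank is no finding.

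Standardised Ifitm2 measured 686, 882, 738 and 818 CPM and Ifitm3 measured 462, 543, 393 and 527 CPM. Their log2 ratios for JAK2V617F were 0.36 (0.32 to 0.40) and 0.23 (0.17 to 0.29) in WT, and 0.15 (0.12 to 0.17) and 0.41 (0.38 to 0.45) in Gli1KO marrow. Neither reached 1.5-fold in either genotype. Without GMP/promyelocyte cells the Ifitm3 ratio in WT was -0.03, and without HSC/MPP cells it was 0.66. Ifitm6 was not measured on this scale, at 5.31, 3.77, 2.34 and 6.34 CPM.

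Between genotypes with JAK2V617F, standardised Ifitm1 was lower in Gli1KO marrow at a log2 ratio of -0.41 (-0.43 to -0.38), which put it at place 7738 of 7809 genes. It did not reach 1.5-fold, where 0.41% of genes were lower and 0.499% higher by that much, and over all kept cells without standardisation the ratio was 0.34. Of 15 groups, 4 were lower by 1.5-fold: plasma cells at -1.57 (59 and 33 cells), which serve as background, macrophages at -1.41 (35 and 21 cells), GMP/promyelocyte at -0.72 and cluster 5 at -0.68, where 14.8%, 13.7%, 0.543% and 0.544% of genes were lower by that much. As given above, the macrophage group is not read as macrophages alone. Monocytes stood at -0.58, cluster 11 at -0.48 and HSC/MPP at -0.05. Mesenchymal stromal cells were higher at 1.14 (37 and 43 cells), where 20.8% of genes were higher by 1.5-fold. Whether these stromal cells came from the donors, and so carried the genotype, or from the recipients was not tested. In neutrophils every member was higher in Gli1KO marrow. The folds were 1.91 (1.85 to 1.97) for Ifitm1, 1.36 for Ifitm2, 1.53 for Ifitm3 and 1.37 for Ifitm6. There 1.14% of genes were at least 1.5-fold higher. The make-up of these neutrophil groups differed too, and its part was not tested. Ifitm2 and Ifitm3 had standardised ratios of -0.11 and -0.04.

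Between genotypes with JAK2WT, standardised Ifitm1 was higher in Gli1KO marrow, at a log2 ratio of 0.56 (0.48 to 0.63), place 152 of 8090 genes, with 1.36% of genes at least 1.5-fold higher and 1.05% lower. The fold was 2.71 (2.44 to 3.02) in GMP/promyelocyte, 2.58 (2.26 to 2.94) in monocytes and 2.88 (2.66 to 3.13) in mast/basophil cells, with backgrounds of 1.85%, 1.55% and 6.45%, and 1.30 (1.21 to 1.39) in HSC/MPP. Ifitm2 had a ratio of 0.10 and Ifitm3 one of -0.23, the latter at 0.01 without HSC/MPP cells. The Gli1KO JAK2WT library thus stood above the WT JAK2WT library in Ifitm1, and the Gli1KO JAK2V617F library under the WT JAK2V617F library. The 4 comparisons share libraries, so these values are not independent of the JAK2V617F ratios.

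Other genes known to answer interferons were read in the same 4 groups. Of 48 interferon-stimulated genes, 28 were measured in WT marrow: 0 were at least 1.5-fold higher with JAK2V617F, 2 were lower (Dtx3l and Ifi27l2a), beside 3.52% and 2.96% of all genes, and their median log2 ratio was -0.20 against 0.04 for all genes. In Gli1KO marrow 0 were higher and 0 lower, beside 0.329% and 0.316% of all genes, so a count of 0 is near the background, and the median was -0.03. Bst2, a tethering factor for budding viruses, measured 177, 153, 175 and 190.3 CPM, and Ly6e, a membrane-anchored antiviral protein, 724, 669.8, 681 and 665 CPM. Ifi47, a GTPase, was the highest of the abundant members in WT marrow at a log2 ratio of 0.52 and stood at -0.04 in Gli1KO marrow. Ifi203 and Ifi27 were the lowest abundant ones in WT, at -0.49 and -0.45, and stood at -0.15 and -0.14 in Gli1KO marrow. Lgals3bp had ratios of 0.32 and -0.02 and Sp100 of -0.20 and -0.18, and Epsti1 stood at -0.04 in Gli1KO marrow.

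Interferon gamma-inducible genes gave 13 measured of 24, with 0 higher and 0 lower in both genotypes and medians of 0.13 and -0.16. Of all genes, 3.52% were higher and 2.96% lower in WT marrow, and 0.329% and 0.316% in Gli1KO marrow. Counts of 0 in this list and the next are therefore near the background. Psmb8, an immunoproteasome subunit, had ratios of 0.39 and -0.02, and Tap1, a subunit of the peptide transporter, 0.15 and -0.28. Its partner Tap2 had 0.32 and -0.06, and the immunoproteasome subunits Psmb10 and Psmb9 had 0.15 and 0.08, and -0.08 and -0.16. Gbp3 stood at -0.47 in Gli1KO marrow. Of 17 receptor and signalling genes, 16 were measured, 0 were higher in either genotype, and Irf8, a transcription factor of monocytes and dendritic cells, was lower in WT marrow at -1.16 and stood at -0.51 in Gli1KO marrow. Ifngr1 measured 136, 161, 154 and 176 CPM and Jak1 101, 103, 100.3 and 108 CPM. Stat3 had ratios of 0.15 and 0.09, Irf2 of -0.11 and -0.01 and Ifnar2 of -0.12 and 0.06, and Il10rb stood at 0.01 in Gli1KO marrow.

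JAK-STAT targets are genes that STAT factors switch on after cytokine signals. Of 17 genes, 10 were measured in WT marrow, and 5 were at least 1.5-fold higher: the kinase gene Pim1 (0.79), the growth regulator Myc (0.69), the cyclin Ccnd3 (0.59), Id1 and the feedback inhibitor Socs3, with a median of 0.58, beside 3.52% of all genes. In Gli1KO marrow 1 of 9, Socs3, was higher, beside 0.329% of all genes, and the median was 0.31. The list did not move as one: the cyclin Ccnd2 had ratios of -0.50 in WT and -0.32 in Gli1KO marrow. Junb had 0.56 and 0.37, and Mcl1, a survival factor, 0.25 and 0.13. Ccnd1 stood at 0.16 in WT marrow, and in Gli1KO marrow Pim1 stood at 0.40, Ccnd3 at 0.31 and Myc at 0.11. Pim1 measured 139, 248, 203 and 271 CPM. Of 8 partners and trafficking genes of IFITM proteins 7 were measured in WT marrow, and 0 passed 1.5-fold with JAK2V617F in either genotype, a count near the background. The tetraspanin Cd81 measured 121, 187, 199 and 231 CPM, and Zdhhc20, an enzyme that palmitoylates IFITM3, had a ratio of -0.45 in WT marrow. Cd9, another tetraspanin, had ratios of 0.27 and 0.56, Vapa of 0.33 and 0.20, Vcp of 0.31 and 0.05 and the ubiquitin ligase gene Nedd4 of -0.28 and -0.06, and Zmpste24 stood at 0.17 in WT marrow.

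**Figure D5:**
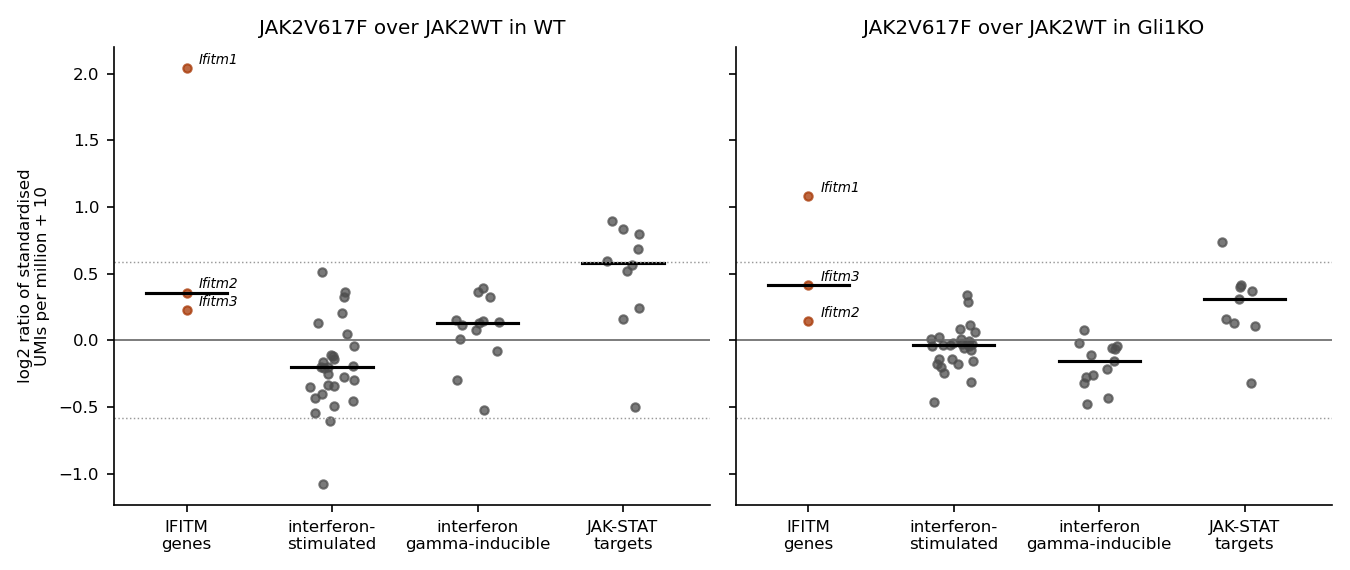
Log2 ratio of JAK2V617F over JAK2WT, standardised over 4 cell groups, for the 3 measured members and the measured genes of 3 lists, in WT (left) and Gli1KO (right) marrow; each point is a gene, black bars are medians and dotted lines mark 1.5-fold. Ifitm1 lies at 2.04 and 1.08, while the medians of the interferon-stimulated genes are -0.20 and -0.03.

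Between genotypes, 0.499% of all genes were higher and 0.41% lower by 1.5-fold with JAK2V617F, and 1.36% and 1.05% with JAK2WT, so counts of 0 or 1 in a list are near the background. With JAK2V617F the interferon-stimulated genes had 0 higher, 0 lower and a median of 0.14, the interferon gamma-inducible genes 0, 0 and -0.09, and the JAK-STAT targets 0 higher, 1 lower (Ccnd1) and -0.04. With JAK2WT the medians were 0.00, 0.18 and 0.23, with 1 gene of these 3 lists higher (Gbp3) and 1 lower (Ccnd1). All-gene medians were 0.00 and 0.03.

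Across 57 sums of a cell group in a library (at least 50 cells each), the genes whose level ran most like that of Ifitm1, among 6191 genes, were Ier3 and Flot1 (Pearson r of 0.81 for log2(CPM + 10)), Ifitm2 (0.77), Muc13 (0.74) and Pla2g4a (0.73). Ifitm2 ran most like Tkt (0.91), Aldh2 (0.88) and Ifitm3 (0.87), followed by Nfe2 and Pgk1. Ifitm3 ran most like Ifitm2 (0.87), Alox5ap (0.84), Skap2 (0.82), Spi1 (0.82) and Lst1 (0.81), and Ifitm6 like Pilra (0.94), Mmp8, Mcemp1 and Cd177 (each 0.93) and Pilrb2 (0.92). Between members r was 0.66 for Ifitm1 with Ifitm3 and 0.23 for Ifitm1 with Ifitm6. The sums share libraries and depth, so these values describe these data only.

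Within single GMP/promyelocyte cells thinned to 1000 UMIs, Ifitm1 and Ifitm3 were seen together in 4, 114, 17 and 74 cells, which is 1.53, 1.35, 1.48 and 1.33 times the number given by their separate shares. In WT JAK2WT this was 4 cells against 2.62 expected. For Ifitm1 and Ifitm2 in the same cells the ratios were 1.21, 1.05, 0.918 and 1.07. Other groups gave other ratios for Ifitm1 and Ifitm3. They were 1.21, 1.12, 1.16 and 1.06 in HSC/MPP and 1.08, 1.05, 1.26 and 1.05 in cluster 11. Cluster 5 gave 0.66, 1.12, 0.93 and 1.13, monocytes 1.93, 1.03, 0.84 and 1.06, and neutrophils 0, 1.04, 0.69 and 1.01. GFP transcripts were seen in few cells, with at least 1 GFP UMI in 40, 90, 6 and 59 cells, so cells with GFP were set against others only in erythroid cells of WT JAK2V617F. There Ifitm1 measured 74.1 CPM in 46 cells with GFP and 64.8 CPM in 1218 cells without, a fold of 1.14 (0.851 to 1.51), and the folds for Ifitm2 and Ifitm3 were 1.14 (0.999 to 1.30) and 1.03 (0.872 to 1.21). A difference between cells with and without a GFP UMI was not detectable at this depth for these 3 members. Erythroid cells also served as background for Ifitm1. A GFP UMI was seen in 2.62% of kept cells of this library, so a cell without one cannot be taken as untransduced. The comparison therefore cannot decide whether the level differs between transduced and other cells.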

How the data were processed

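The 4 mRNA libraries of the 10x Genomics Single Cell 3' v3.1 assay were used, and the 4 hashing libraries made with hashtag antibodies were not analysed here. The values deposited by the authors are unnormalized UMI counts for each gene in each barcode; per the submitters' processing notes, Cell Ranger 4.0.0 and mm10 were used, and the notes also list Seurat 4.0.4. Groups come from the sample titles. Members, gene lists and marker lists were chosen with earlier results of these data known.

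Cells were kept from 500 genes and 1000 UMIs upwards if mitochondrial genes held under 10% of UMIs (7987, 3602, 3999 and 6490), and the highest Scrublet scores, 0.8% per 1000 barcodes, were removed as doublets (791, 170, 229 and 455). Cells were clustered together in scanpy 1.11.5 (Python 3.11.15 with numpy 2.4.6, pandas 2.3.3 and scipy 1.17.1; clustering with igraph 0.11.9) on counts scaled to 10000, 2000 variable genes without IFITM, sex-linked and GFP genes, 30 principal components and 15 neighbours, at Leiden resolution 1.0. Of 29 clusters 19 were named from 18 marker sets: a score of at least 0.5, at least 3 markers at 50 CPM, at least 2 markers among the 10 leading genes and a lead of 2 such markers over any other set, limits set after the clusters were seen. A name means resemblance by those markers.

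UMIs were summed per library and group as CPM with exact Poisson intervals. Folds carry exact conditional binomial intervals, standardised CPM the gamma interval of Fay and Feuer. Groups of at least 20 cells are given, genes need 10 CPM in either library, log2 ratios add 10 CPM, and a gene counts as higher or lower past 1.5-fold. No p-value was computed, since n is 1 per group. The code for the ratios was tested on simulated data.

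Besides the 4 members, genes were named by rule: of each list, all abundant genes (50 CPM) where 10 or fewer, otherwise the 3 highest and 3 lowest, and the 5 genes most like each member. The list genes of this rule are printed for the JAK2V617F comparisons, except 1 that is not reported here; between genotypes only some are. Genes named beside a count of 5 or fewer, and Ltf and Elane, were chosen after their values were seen. Alternatives were other filters, doublets kept, other resolutions, weights, added CPM, scalings and left-out barcodes or groups.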

Additional observations from a re-analysis of the deposited data

Results flagged for a closer look

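Of 48 pairs of a member and a cell group measured in both genotypes, 10 had JAK2V617F ratios of opposite sign in WT and Gli1KO marrow. In 4 of them both ratios were past 1.5-fold, and only these are described; the difference between the ratios was not tested, since each group is 1 library. In cluster 21, led by Ncr1, Xcl1 and Klrk1 (49, 45, 89 and 225 cells), Ifitm2 measured 184, 72.9, 33.4 and 170.3 CPM, a log2 ratio of -1.23 in WT and 2.05 in Gli1KO, which differ by 3.28. In innate lymphoid cells (154, 132, 95 and 433 cells) Ifitm3 measured 117, 59.95, 43.3 and 118 CPM, with ratios of -0.86 and 1.27 that differ by 2.13. Ifitm6 in cluster 3, a cluster of low depth with a median of 1372 UMIs (96, 40, 677 and 206 cells), measured 93.4, 15, 8.53 and 79.5 CPM, with ratios of -2.05 and 2.27 that differ by 4.32. Behind these values were only 12 UMIs in WT JAK2WT, 9 in Gli1KO JAK2WT, 28 in Gli1KO JAK2V617F and fewer than 4 in WT JAK2V617F. Ifitm6 in mesenchymal stromal cells (37, 43, 41 and 37 cells) measured 16.5, 0, 0 and 17.7 CPM, with ratios of -1.41 and 1.47 that differ by 2.87. No UMI was seen where the level was 0, and only a few UMIs lay behind 16.5 and 17.7 CPM. The size of these ratios therefore depends on the 10 CPM added to both values, and their direction rests on those few UMIs. In all 4 cases WT JAK2WT and Gli1KO JAK2V617F were the high libraries.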

How the results depend on the processing

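No paired analysis was possible because each group is 1 library. Over 12 standardised log2 ratios (Ifitm1, Ifitm2 and Ifitm3 in 4 comparisons) and 15 alternatives, 111 of 180 values moved by less than the counting error, 69 moved by more, and no value that was past 1.5-fold changed sign. The cause was not tested for any of them, apart from what the alternative itself removes. Values below are in the order JAK2V617F over JAK2WT in WT, the same in Gli1KO, Gli1KO over WT with JAK2V617F and the same with JAK2WT, and only moved values are given. Keeping doublets and Leiden resolutions 0.5 and 2.0 also changed the matched groups. There monocytes and an unnamed cluster of the new clustering stood beside GMP/promyelocyte and HSC/MPP, in place of clusters 5 and 11. The part of that change in the moved values was not tested. For Ifitm1 (2.04, 1.08, -0.41 and 0.56), the stricter cell filter, which left GMP/promyelocyte and HSC/MPP as matched groups, gave 1.76, 1.04, -0.32 and 0.40, and sums over all kept cells gave 3.3, 2.20, 0.34 and 1.44. Without HSC/MPP cells the 4 were 3.20, 1.63, -0.64 and 0.93, and Leiden resolution 0.5 gave 2.43, 1.32, -0.44 and 0.67. Keeping doublets gave 2.31, 1.239 and -0.45 for the first 3 comparisons, and leaving out GMP/promyelocyte cells 1.64, 0.84 and -0.30. Adding 50 CPM gave 1.90 and 1.01 for the first 2, and leaving out cluster 11 gave 1.94 and 1.04. Leiden resolution 2.0 gave 1.14 in Gli1KO and 0.46 between genotypes with JAK2WT. Equal weights gave 2.18 in WT and -0.45 between genotypes with JAK2V617F, and leaving out cluster 5 gave 1.93 and -0.35 for the same.

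For Ifitm2 (0.36, 0.15, -0.11 and 0.10), sums over all kept cells gave 0.67, 0.63, 0.29 and 0.33. Leiden resolution 0.5 gave 0.44 in WT, 0.20 in Gli1KO and 0.14 between genotypes with JAK2WT. In WT the stricter filter gave 0.31, CPM without haemoglobin, ribosomal and mitochondrial genes 0.30, median-of-ratios size factors 0.29 and leaving out HSC/MPP 0.40. In Gli1KO keeping doublets gave 0.18 and CPM without those genes 0.12. Between genotypes with JAK2WT the stricter filter gave 0.063 and median-of-ratios size factors 0.044. For Ifitm3 (0.23, 0.41, -0.04 and -0.23), sums over all kept cells gave 0.72, 1.204, 0.43 and -0.062. In WT keeping doublets gave 0.35, resolution 0.5 gave 0.44, the other CPM 0.17, median-of-ratios 0.17, leaving out GMP/promyelocyte -0.026 and leaving out HSC/MPP 0.66. In Gli1KO the values were 0.50 with doublets, 0.57 and 0.49 at resolutions 0.5 and 2.0, 0.38 with 50 CPM added, 0.27 without GMP/promyelocyte and 0.60 without HSC/MPP. Between genotypes with JAK2V617F they were -0.10 with doublets and -0.13 at resolution 2.0, and with JAK2WT -0.31 under the stricter filter, -0.34 at resolution 2.0, -0.31 without GMP/promyelocyte and 0.0099 without HSC/MPP.

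Requiring 50 CPM in either library, so that fewer genes were tested, brought the count of genes past 1.5-fold from 239 to 103 (lower with JAK2V617F in WT), 26 to 11 and 25 to 15 (higher and lower in Gli1KO), 39 to 13 and 32 to 15 (Gli1KO over WT with JAK2V617F), and 110 to 63 and 85 to 42 (with JAK2WT). Interferon-stimulated genes lower with JAK2V617F in WT went from 2 to 0, and with no minimum those lower in Gli1KO with JAK2WT went from 0 to 1. Within cell groups 386 of 497 values moved by less than the counting error, 109 by more, and 2 reversed: Ifitm6 in macrophages with doublets kept was -0.017 in WT (0.93 without) and -0.20 in Gli1KO (0.61 without), an alternative added after seeing the data. Leaving out cells with shared barcodes moved none of the 12 ratios. The alternative that counts a cell as GFP-positive from 2 GFP UMIs upwards was not run, since 2, 5, 0 and 6 cells had them. Ifitm6 in progenitors lay under the 10 CPM minimum and has no ratio, and few cells limit neutrophils of Gli1KO JAK2WT (29) and macrophages.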
